A study of Arabidopsis thaliana with 28 samples.

Results

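Arabidopsis thaliana seedlings of the wild type Col-0 that had been in abscisic acid (ABA) for 24 h were compared with seedlings that had been in it for 3 h. The comparison draws on 4 of the 28 libraries of the series, 2 at each time, and on 20034 of the 33557 entries in the deposited table. These are the genes with a value of at least 1 in at least 2 of the 14 pooled columns. Wild-type seedlings given an ethanol mock for 24 h and for 3 h, again with 2 libraries at each time, show how the same genes moved over the same hours without ABA. The full series covers 0.5, 1, 3, 6, 9, 12 and 24 h under both treatments. All groups share the wild-type genotype. The sources used here do not give the ABA dose, the age of the seedlings or their growth medium.

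ABA is the hormone that plants make when water is short and during seed maturation. It binds PYR/PYL receptors, which then inhibit the clade A PP2C phosphatases, so that SnRK2 kinases are released and activate ABF transcription factors, which bind ABA-responsive elements (ABRE) in promoters. Among the genes induced in this way are those for the PP2C phosphatases and AFP proteins that damp the pathway, those for CYP707A enzymes that break ABA down, and those for late embryogenesis abundant (LEA) proteins that protect cells from drying.

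RNA was sequenced from whole seedlings with paired-end reads. The values are the authors' FPKM (fragments per kilobase of transcript, scaled to the size of the library), 1 per gene and group, made from the 2 libraries together. No value has a replicate error, and a difference between 24 h and 3 h is therefore described without a test. The labels do not say whether the 2 libraries of a group came from separate cultures. The steps between low values implied about 43700000 fragments in the ABA pool at 24 h and 44700000 in that at 3 h, and 47900000 in the mock pool at 24 h and 40700000 in that at 3 h. At these depths a level of 10 FPKM in a transcript of 1500 bases corresponds to 509 to 598 fragments. In whole seedlings, fewer cells of a type and less RNA per cell cannot be told apart. Differences below are of log2(FPKM + 1), 24 h minus 3 h, unless ABA minus mock is named.

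Between 3 h and 24 h of ABA more genes went down than up. Of the 20034 genes, 1332 were at least 2-fold lower at 24 h than at 3 h under ABA (6.65% of all genes) and 679 at least 2-fold higher (3.39%). In the mock, 363 genes were at least 2-fold lower at 24 h (1.81%) and 505 at least 2-fold higher (2.52%). Of the 1332 lower genes, 126 were also 2-fold lower in the mock, and of the 679 higher genes 140 were also 2-fold higher there. The pools differ in their summed FPKM, and with all pools scaled to the same sum the split became 1022 lower and 973 higher under ABA, and 499 lower and 332 higher in the mock. That scaling moved the median of all genes by 0.12 under ABA and by -0.11 in the mock on the log2 scale. With a trend in transcript length removed the mock split was 452 lower and 327 higher.

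A limma fit of the 5 ABA pools from 3 to 24 h on log2 hours tested genes for a slope, steady or not. Its error is the scatter of the times about a line with 3 residual degrees of freedom, which is not a replicate error. At a Benjamini-Hochberg adjusted p under 0.05, 3100 genes fell (15.5%) and 1905 rose (9.51%). In the same fit of ABA minus mock, 801 genes fell (4%) and 211 rose (1.05%). With pools scaled to the same sum, 1896 genes fell and 2264 rose under ABA, and 366 fell and 397 rose in ABA minus mock. The calls lean on the ends of the course. With the 24 h pool left out 910 genes fell and 277 rose under ABA, and with the 3 h pool left out 0 passed in either direction (2855 fell and 2478 rose at an unadjusted p under 0.05). A gene is said below to have risen or fallen where it passed this limma test in the 5 pools, and the slopes share the 3 h and 24 h pools with the differences they stand beside.

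The genes of most interest are those that ABA had induced by 3 h. A gene was taken as induced where ABA minus mock was at least 1 on the log2 scale at 3 h and the authors' deposited table called it different at that time. By this rule 2109 genes (10.5%) were induced at 3 h. Of these, 787 were at least 2-fold lower at 24 h than at 3 h under ABA and are called declining, 1300 moved less than 2-fold and are called holding, and 22 were at least 2-fold higher and are called rising. The declining genes made up 37.3% of the induced genes and the holding genes 61.6%, but the 3 h ABA pool that chose the genes also enters the change, so the first share cannot be set against the 6.65% of all genes. When genes induced at 1 h were taken instead, 460 of 1138 (40.4%) were at least 2-fold lower at 24 h than at 3 h under ABA and 14 at least 2-fold higher. The genes nearest the limits stood at -1.0005 in the declining class and at -0.998 in the holding class, and at 1.04 in the rising class and 0.99 in the holding class. Within 0.05 of the lower limit lay 43 genes inside it and 67 outside.

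The pools of 12 h and 6 h took no part in the choice of classes. Of the 787 declining genes, 775 (98.5%) were lower at 12 h than at 6 h under ABA, against 53.4% of all genes, and 153 were at least 2-fold lower, against 1.65% of all genes. The share lower at 12 h than at 6 h was 76.8% among all induced genes and 64.9% in the holding class. The median difference of 12 h minus 6 h in the declining class was -0.66 under ABA and -0.06 in the mock. Of the 22 rising genes, 21 were higher at 12 h than at 6 h under ABA, against 46.3% of all genes, and 5 were at least 2-fold higher, against 2.16% of all genes.

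The lower level of the declining genes at 24 h was mostly not mirrored in the mock. Their median difference was -1.41 under ABA and -0.08 in the mock. In the mock 35 of the 787 were 2-fold lower and 16 were 2-fold higher, against 1.81 and 2.52% of all genes. Of the 787, 127 were at least 4-fold lower at 24 h than at 3 h under ABA and 13 at least 8-fold lower. Of the 787, 762 fell in the limma fit under ABA and 403 in ABA minus mock, where 15.5 and 4% of all genes fell. The 3 h and 24 h pools that chose the class also enter both slopes. These counts are therefore favoured by the choice and are given as a description. By 24 h most of the class lay within 2-fold of the mock. The median ABA minus mock difference of the class was 0.67 at 24 h and 1.98 at 3 h, and 281 of the 787 (35.7%) were still at least 2-fold above the mock at 24 h, 499 lay within 2-fold of it and 7 were at least 2-fold below it. The ABA level was highest at 3 h in 619 of them, at 1 h in 108 and at 0.5 h in 36.

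**Figure D1:**
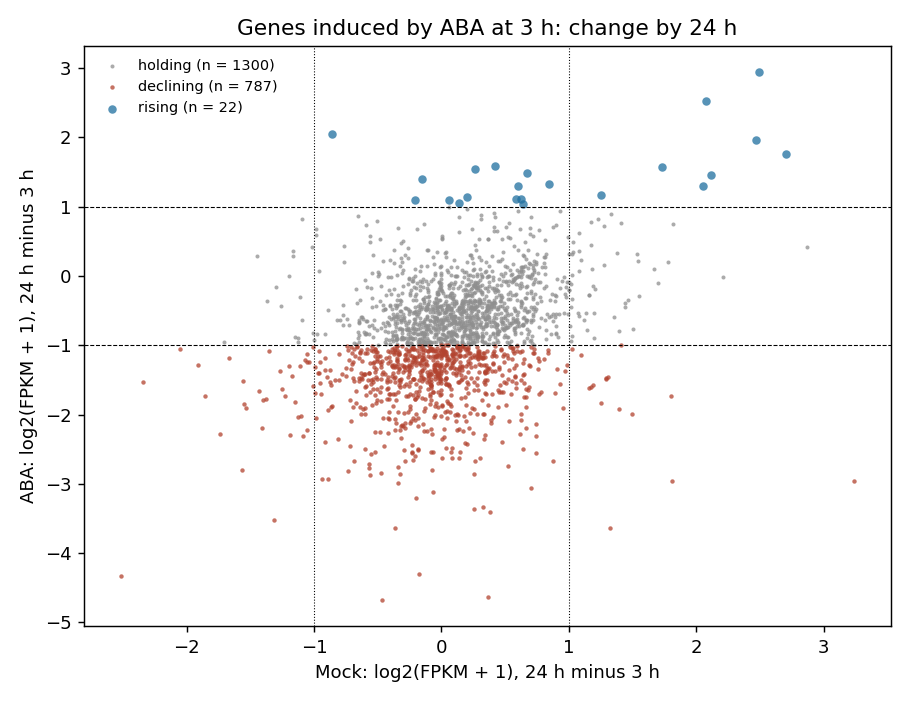
Change of the 2109 genes induced at 3 h, as log2(FPKM + 1) at 24 h minus 3 h, under ABA (vertical axis) against the mock (horizontal axis). Each point is 1 gene, dashed and dotted lines mark a 2-fold change, and most of the 787 declining genes lie below -1 on the ABA axis while staying within 2-fold in the mock.

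The holding class, which by its definition moved under 2-fold under ABA, had a median ABA minus mock difference of 0.84 at 24 h and 1.39 at 3 h, and 547 of its 1300 genes were still at least 2-fold above the mock at 24 h. By the limma test 461 of its genes fell under ABA and 17 rose, so the class holds genes that moved slowly as well as genes that stayed. The 22 rising genes had a median ABA minus mock difference of 2.42 at 24 h and 1.89 at 3 h, and 8 of them were also at least 2-fold higher in the mock. At 24 h, 1108 genes (5.53%) were at least 2-fold above the mock and called different in the authors' deposited table. Of these, 263 (1.31% of all genes) had an ABA minus mock difference under 1 at 3 h and are called late.

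**Figure D2:**
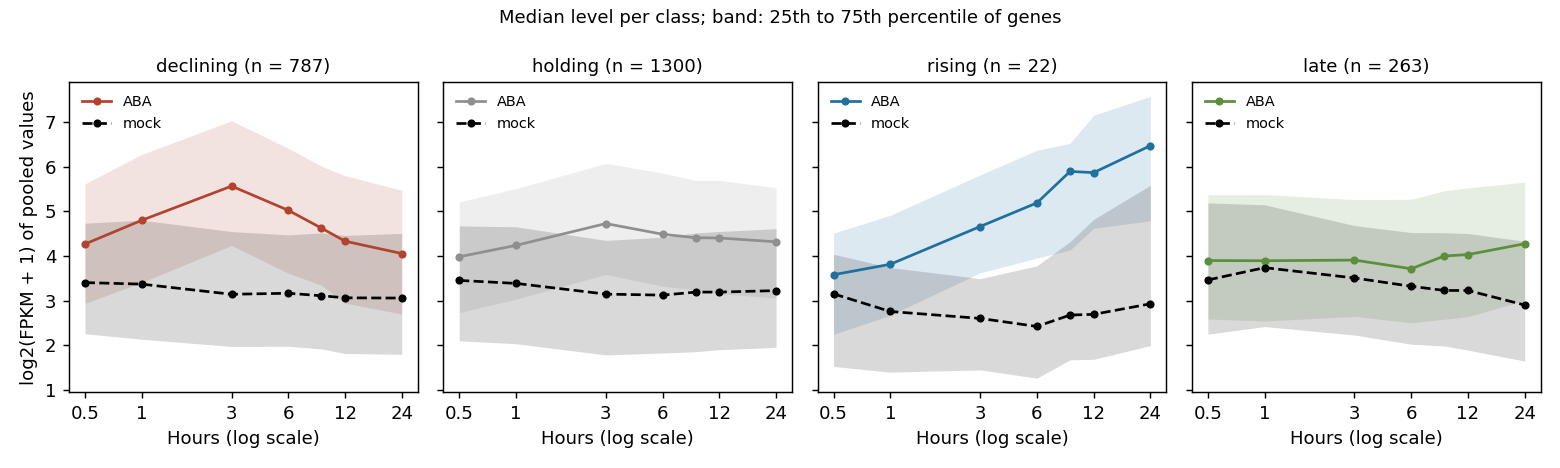
Median log2(FPKM + 1) of each class at 0.5 to 24 h (log time axis), under ABA (solid, coloured) and in the mock (dashed, black), with bands from the 25th to the 75th percentile of genes. The declining median under ABA is 4.06 at 24 h and 5.56 at 3 h, and the rising median 6.47 at 24 h and 4.66 at 3 h.

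Promoter windows of 250 bases upstream of the annotated gene start (RefSeq, TAIR10.1) were searched on both strands for the ABRE, written ACGTGNC, which can share bases with the G-box CACGTG. The ABRE was present in 137 of 768 declining promoters (17.8%), 248 of 1259 holding promoters (19.7%), 3 of 22 rising promoters (13.6%) and 29 of 256 late promoters (11.3%), and in 1943 of the 19495 promoters of all genes (9.97%). The G-box was present in 15.9% of declining, 15.7% of holding and 7.77% of all promoters. Declining and holding genes thus differed little in either motif. The dehydration-responsive element CCGAC was present in 17.6% of declining, 14.3% of holding and 13.0% of all promoters, the evening element AAATATCT in 5.73, 6.99 and 5.02%, the heat shock element GAANNTTC in 9.38, 8.10 and 9.21%, and the W-box core TTGAC in 47.9, 45.3 and 45.1%. A match is a description of the letters and not a bound site.

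The steepest declines among abundant genes were larger than 8-fold. COR15B, which encodes a chloroplast protein that protects membranes in the cold, stood at 76.6 FPKM at 24 h and 1933 FPKM at 3 h under ABA, against 12.4 FPKM at 24 h and 9.40 FPKM at 3 h in the mock. Its level was highest at 3 h, was 1274 FPKM at 6 h, 607 FPKM at 9 h and 118 FPKM at 12 h, and the 24 h value was the lowest of the 5 later ABA pools (slope -1.72 ± 0.26 log2 units per doubling of the hours, SE, limma adjusted p = 0.013). Its close copy COR15A stood at 924 FPKM at 24 h and 7199.7 FPKM at 3 h under ABA, against 53.5 FPKM at 24 h and 14.5 FPKM at 3 h in the mock, and the split of reads between the pair is uncertain. In the mock COR15A was higher at 24 h than at 3 h (difference 1.81), so that ABA and mock moved in opposite directions. MAPKKK18, a kinase at the head of an ABA-activated MAP kinase cascade, stood at 6.44 FPKM at 24 h and 77.6 FPKM at 3 h under ABA, against 1.09 FPKM at 24 h and 0.605 FPKM at 3 h in the mock. Its ABA peak came earlier, with 132 FPKM at 1 h, and it fell with a slope of -1.17 ± 0.08 (SE, limma adjusted p = 0.0058).

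Several of the strongest decliners are known by annotation alone. AT5G04120, annotated as a phosphoglycerate mutase family protein, stood at 0.655 FPKM at 24 h and 41.3 FPKM at 3 h under ABA, against 0.664 FPKM at 24 h and 1.30 FPKM at 3 h in the mock, so that ABA and mock were level at 24 h. AT4G33905, annotated as a peroxisomal membrane protein of the Mpv17/PMP22 family, stood at 5.21 FPKM at 24 h and 121 FPKM at 3 h under ABA, against 0.959 FPKM at 24 h and 1.21 FPKM at 3 h in the mock. AT3G03341, annotated as a cold-regulated protein, had 79.2 FPKM at 24 h and 998 FPKM at 3 h under ABA, against 1.19 FPKM at 24 h and 1.81 FPKM at 3 h in the mock. These genes parted in how much was left: AT3G03341 was still far above the mock at 24 h (ABA minus mock 5.20) and AT5G04120 was not (-0.01). The LOB-domain transcription factor gene LBD1 differed by -3.12, AT1G03700 of an uncharacterised family by -3.37 and AT2G47780, annotated as a rubber elongation factor protein, by -3.06. All 6 fell in the limma fit, with adjusted p between 0.0058 and 0.014, and moved under 2-fold in the mock.

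In 5 strong decliners the mock went the same way by at least 2-fold. HSP17.6II, a small heat shock protein gene whose reads may be shared with its neighbour HSP17.6A, stood at 0.962 FPKM at 24 h and 38.4 FPKM at 3 h under ABA, against 1.37 FPKM at 24 h and 12.5 FPKM at 3 h in the mock. The UDP-glycosyltransferase family gene AT2G36780 differed by -3.52 under ABA and -1.32 in the mock. RD29A, ERD7 and AT1G51090 differed by -2.79, -2.31 and -2.30 under ABA, and by -1.56, -1.09 and -1.19 in the mock. In all 5 the difference under ABA was larger than that in the mock.

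Most induced AFP and clade A PP2C genes were declining, where 37.3% of all induced genes were, but both lists are small. All 4 AFP genes, whose products bind and restrain the transcription factor ABI5, were induced at 3 h, and all 4 were declining (list median -2.08 under ABA and 0.30 in the mock, against -0.03 and 0.02 for all genes). AFP1 stood at 72.8 FPKM at 24 h and 356 FPKM at 3 h under ABA, against 5.82 FPKM at 24 h and 3.45 FPKM at 3 h in the mock. AFP3 stood at 84.3 FPKM at 24 h and 323 FPKM at 3 h under ABA, against 26.9 FPKM at 24 h and 9.63 FPKM at 3 h in the mock, so that it was lower under ABA and higher in the mock at 24 h. AFP4 differed by -2.23 and ended below the mock at 24 h (ABA minus mock -0.59), and AFP2 differed by -1.31. All 4 fell in ABA and in ABA minus mock in the limma fit, where 15.5 and 4% of all genes fell.

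Of the 9 clade A PP2C genes, 7 were induced at 3 h by the rule, of which 5 were declining and 2 holding, with a list median of -1.38 under ABA and 0.14 in the mock. HAI1 stood at 90.3 FPKM at 24 h and 292 FPKM at 3 h under ABA, against 1.91 FPKM at 24 h and 0.692 FPKM at 3 h in the mock. ABI1, the phosphatase first found through its ABA-insensitive mutant, had 169.9 FPKM at 24 h and 446 FPKM at 3 h under ABA, against 39.0 FPKM at 24 h and 35.4 FPKM at 3 h in the mock, and ABI2 had 39.2 FPKM at 24 h and 104 FPKM at 3 h under ABA, against 4.10 FPKM at 24 h and 3.97 FPKM at 3 h in the mock. Each of these was lower at 24 h under ABA and still well above the mock. HAI2 and PP2CA differed by -1.39 and -1.14, and HAB1 and HAB2, at -0.74 and -0.68, were holding. With pools scaled to the same sum PP2CA moved to under 2-fold. HAI3 and AHG1 were not called at 3 h in the authors' deposited table and so stood outside the classes, although HAI3 had 55.2 FPKM at 24 h and 96.1 FPKM at 3 h under ABA and at most 0.135 FPKM in any mock pool. Of the 9 genes, 8 fell in the limma fit under ABA and 4 in ABA minus mock, where 15.5 and 4% of all genes fell.

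The other parts of the core pathway moved less. None of the 9 receptor genes that passed the filter, out of 14, was induced at 3 h, 5 were repressed by the same rule with the sign turned, and none moved 2-fold between 24 h and 3 h under ABA. PYL6 was listed at 0 at 24 h and stood at 0.199 FPKM at 3 h under ABA, against 63.7 FPKM at 24 h and 92.6 FPKM at 3 h in the mock, and PYL5 had 7.98 FPKM at 24 h and 9.06 FPKM at 3 h under ABA, against 102 FPKM at 24 h and 106 FPKM at 3 h in the mock. Their low level under ABA therefore lasted. Among 10 SnRK2 kinase genes, 4 were induced, of which SNRK2.7 was declining (10.6 FPKM at 24 h and 66.4 FPKM at 3 h under ABA) and OST1, SNRK2.9 and SNRK2.10 were holding, with a list median of -0.20. Among 7 ABF and ABI factor genes 4 were induced: ABF3, with 70.6 FPKM at 24 h and 153 FPKM at 3 h under ABA, and ABI5, with 4.88 FPKM at 24 h and 11.2 FPKM at 3 h under ABA, were declining, and ABF2 and ABF4, at -0.85 and -0.13, were holding. Both declining members moved to under 2-fold when pools were scaled to the same sum.

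Of 10 genes for ABA breakdown and transport 5 were induced at 3 h and all 5 were holding, a count too small to set apart from the 61.6% holding among all induced genes. CYP707A1, the most abundant of the ABA hydroxylase genes, stood at 99.7 FPKM at 24 h and 186 FPKM at 3 h under ABA, against 7.75 FPKM at 24 h and 8.64 FPKM at 3 h in the mock. CYP707A2, CYP707A3 and CYP707A4 differed by -0.08, -0.95 and 0.44, and the exporter gene ABCG25 by -0.48. CYP707A1 and CYP707A3 fell in the limma fit (adjusted p = 0.015 and 0.045). On the side of synthesis 3 of 6 genes were induced: NCED3, the dioxygenase that limits ABA synthesis under drought, was declining with 8.37 FPKM at 24 h and 19.8 FPKM at 3 h under ABA, against 0.341 FPKM at 24 h and 0.570 FPKM at 3 h in the mock, and AAO3 and ABA1 were holding.

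**Figure D3:**
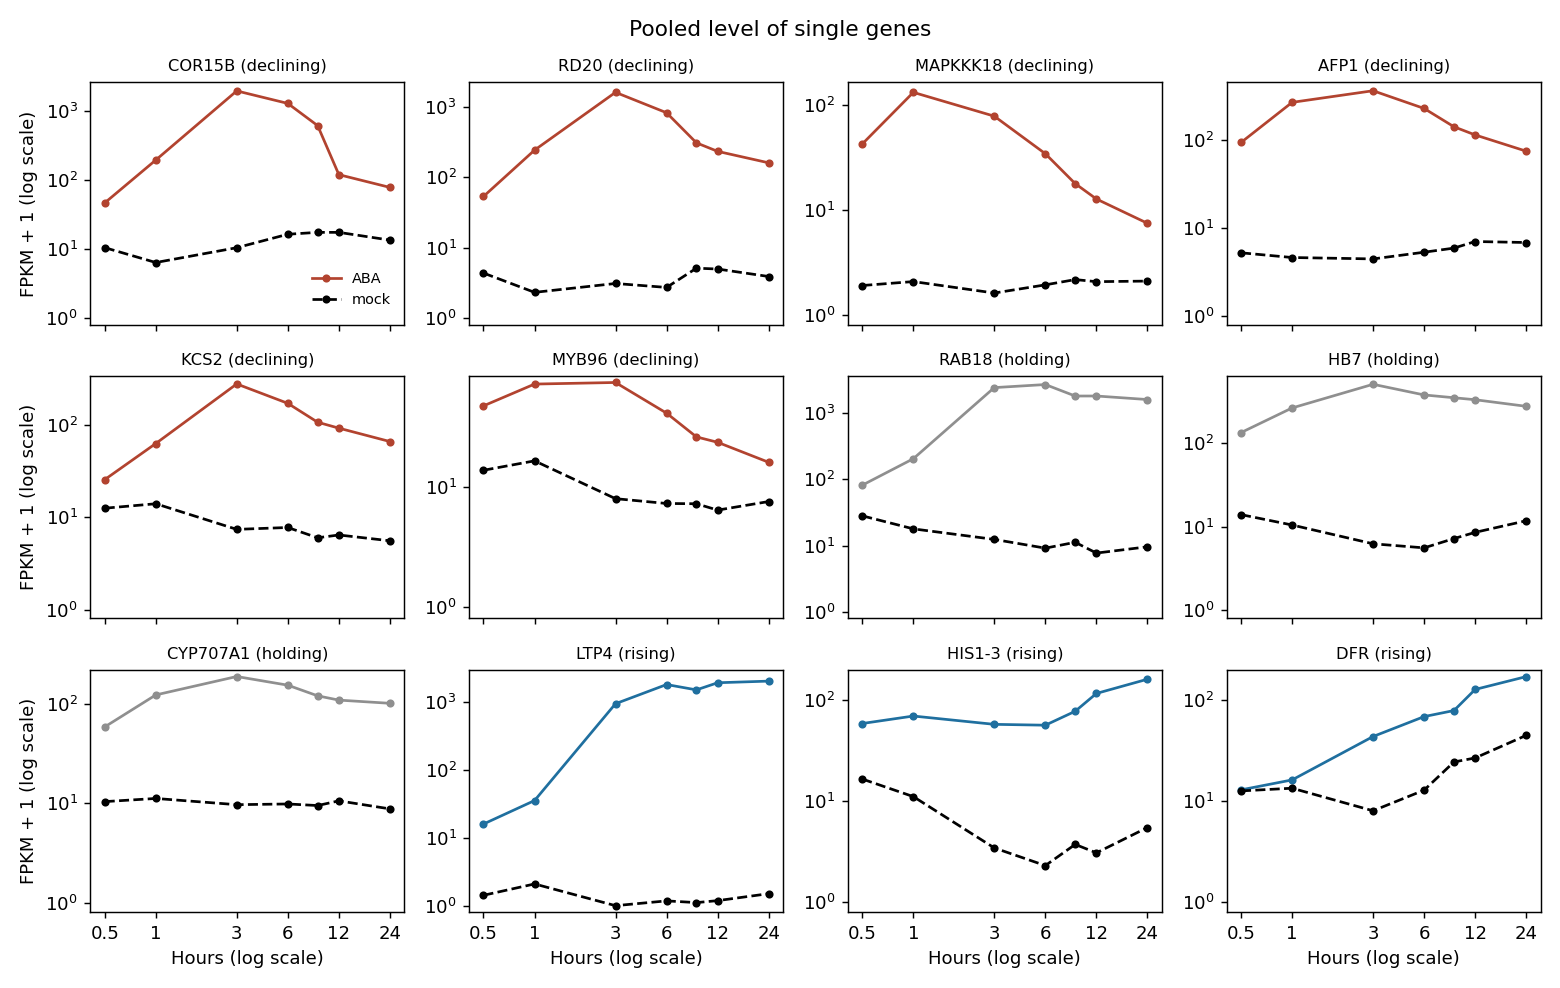
FPKM + 1 (log scale) of 12 genes at 0.5 to 24 h (log time axis), ABA solid and mock dashed, each point 1 pooled value. COR15B stands at 76.6 FPKM at 24 h and 1933 FPKM at 3 h of ABA, RAB18 and HB7 stay within 2-fold of their 3 h level, and LTP4 and HIS1-3 end highest at 24 h.

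Genes for protective proteins were among the most abundant decliners. All 7 RD and KIN genes were induced at 3 h, 6 were declining and 1 was holding, and the list median of -2.67 under ABA stood against -0.20 in the mock. KIN2, a small hydrophilic cold-induced protein gene, stood at 2850.0 FPKM at 24 h and 18188 FPKM at 3 h under ABA, against 472 FPKM at 24 h and 393 FPKM at 3 h in the mock. Its neighbour and close copy KIN1, with 4093 FPKM at 24 h and 7564 FPKM at 3 h under ABA, was holding, and the split of reads between them is uncertain. RD20, which encodes a calcium-binding caleosin of lipid droplets, had 160.2 FPKM at 24 h and 1624 FPKM at 3 h under ABA, against 2.88 FPKM at 24 h and 2.09 FPKM at 3 h in the mock, and fell with a slope of -1.19 ± 0.13 (SE, limma adjusted p = 0.0092). TSPO, a membrane protein gene, had 109 FPKM at 24 h and 1009.7 FPKM at 3 h under ABA, against 0.975 FPKM at 24 h and 1.27 FPKM at 3 h in the mock. RD29B, RD29A and RD22 differed by -1.87, -2.79 and -1.60. Although 6 of the 7 fell, all were at least 2-fold above the mock at 24 h, by 2.03 to 7.49 on the log2 scale.

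Dehydrins, hydrophilic proteins that bind membranes and water, parted. Of 7 genes 6 were induced, 4 of them declining and 2 holding (list median -1.51 under ABA and -0.37 in the mock). COR47 stood at 882 FPKM at 24 h and 5612 FPKM at 3 h under ABA, against 216 FPKM at 24 h and 349.6 FPKM at 3 h in the mock, and ERD10, LTI30 and ERD14 differed by -2.81, -2.08 and -1.51. RAB18 (AT5G66400) stayed near its level, with 1568 FPKM at 24 h and 2370.2 FPKM at 3 h under ABA, against 8.57 FPKM at 24 h and 11.4 FPKM at 3 h in the mock, and XERO1 was higher at 24 h (0.74), a difference under 2-fold. Neither passed the limma fit (adjusted p = 0.094 and 0.11).

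All 18 other LEA genes were induced at 3 h, 12 of them declining and 6 holding, with a list median of -1.40 under ABA and -0.36 in the mock. LEA4-5 stood at 408 FPKM at 24 h and 2377 FPKM at 3 h under ABA, against 4.70 FPKM at 24 h and 4.97 FPKM at 3 h in the mock. LEA7 stood at 1211 FPKM at 24 h and 3130.2 FPKM at 3 h under ABA, against 3.25 FPKM at 24 h and 9.20 FPKM at 3 h in the mock, and the mock was 2-fold lower at 24 h as well. AT3G02480 was the most abundant, with 3983 FPKM at 24 h and 11527 FPKM at 3 h under ABA, and its difference of -1.53 under ABA was smaller than that of -2.34 in the mock. Seed-type members parted. EM6 was declining (-1.09), with 108 FPKM at 24 h and 232 FPKM at 3 h under ABA. EM1, ECP63 and AT3G53040 were less abundant and were holding. Under ABA EM1 had 15.3 FPKM at 24 h and 28.5 FPKM at 3 h, and ECP63 had 5.41 FPKM at 24 h and 8.70 FPKM at 3 h. AT3G53040 had 13.1 FPKM at 24 h and 24.2 FPKM at 3 h under ABA. SAG21 was holding too, and was level with the mock at 24 h (ABA minus mock -0.12). Of the 18, 13 fell in the limma fit under ABA and 3 in ABA minus mock, where 15.5 and 4% of all genes fell.

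Within the 250-base windows 14 of the 18 other LEA promoters held an ABRE (77.8%) and 50% held 2 or more, against 9.97 and 2.45% of all promoters, while 2 of 7 dehydrin promoters held 1. The windows of 4 declining genes and 1 holding gene are printed 5′ to 3′ on the strand of the gene, with ABRE letters on either strand in capitals. They were chosen after their values were seen, overlap no other gene and each hold 2 or more matches. They lie in TAIR10.1 at chr1:19619474-19619723, plus strand (LEA7), chr5:2090431-2090680, minus strand (LEA4-5), chr5:21236771-21237020, plus strand (RD29B), chr4:17263314-17263563, plus strand (AT4G36600) and chr3:19666498-19666747, minus strand (AT3G53040).
LEA7: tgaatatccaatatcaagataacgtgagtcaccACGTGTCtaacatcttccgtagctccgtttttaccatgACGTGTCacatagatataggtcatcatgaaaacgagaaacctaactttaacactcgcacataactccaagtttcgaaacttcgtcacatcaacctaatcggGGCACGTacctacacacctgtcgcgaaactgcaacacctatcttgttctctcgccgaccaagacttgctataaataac
LEA4-5: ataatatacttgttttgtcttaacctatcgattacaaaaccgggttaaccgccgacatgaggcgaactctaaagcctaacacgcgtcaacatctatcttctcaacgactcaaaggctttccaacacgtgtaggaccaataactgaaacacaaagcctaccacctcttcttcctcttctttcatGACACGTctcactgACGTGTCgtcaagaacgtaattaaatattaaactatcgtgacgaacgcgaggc
RD29B: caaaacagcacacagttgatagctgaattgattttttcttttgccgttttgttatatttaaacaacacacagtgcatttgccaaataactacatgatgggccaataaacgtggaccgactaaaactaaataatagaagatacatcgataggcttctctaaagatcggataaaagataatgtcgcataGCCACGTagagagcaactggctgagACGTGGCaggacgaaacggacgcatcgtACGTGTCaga
AT4G36600: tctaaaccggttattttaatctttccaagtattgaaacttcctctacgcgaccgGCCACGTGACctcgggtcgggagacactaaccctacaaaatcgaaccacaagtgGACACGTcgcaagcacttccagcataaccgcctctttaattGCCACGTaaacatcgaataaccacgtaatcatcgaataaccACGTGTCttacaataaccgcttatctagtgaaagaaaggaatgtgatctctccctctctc
AT3G53040: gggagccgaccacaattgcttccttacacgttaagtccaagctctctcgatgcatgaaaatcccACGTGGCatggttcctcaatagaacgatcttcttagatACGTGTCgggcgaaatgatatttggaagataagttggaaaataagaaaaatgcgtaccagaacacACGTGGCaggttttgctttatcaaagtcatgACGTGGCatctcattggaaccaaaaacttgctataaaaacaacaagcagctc
The declining LEA7, LEA4-5, RD29B and AT4G36600 hold 3, 2, 3 and 5 matches, and the holding AT3G53040 holds 4. Only windows with matches are printed, so their range does not describe the declining class. The windows of the declining COR47, KIN2, ERD10, ERD14, COR15A, RD29A and RD20, which also overlap no other gene, hold no match to ACGTGNC. Those of COR15A and RD20 do hold the G-box CACGTG. Bases outside the 250-base windows were not searched.

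Genes for lipid barriers were nearly all induced and nearly all declining. All 13 suberin genes, which build the waxy polyester of root endodermis and other inner barriers, were induced at 3 h, 11 of them declining and 2 holding (list median -1.79 under ABA and -0.07 in the mock). KCS2, a synthase that elongates fatty acids, stood at 64.5 FPKM at 24 h and 274 FPKM at 3 h under ABA, against 4.53 FPKM at 24 h and 6.36 FPKM at 3 h in the mock. ASFT, the feruloyl transferase of suberin, had 66.0 FPKM at 24 h and 244 FPKM at 3 h under ABA, against 25.3 FPKM at 24 h and 19.4 FPKM at 3 h in the mock, and the acyltransferase gene GPAT5 had 15.7 FPKM at 24 h and 60.4 FPKM at 3 h under ABA, against 3.27 FPKM at 24 h and 3.04 FPKM at 3 h in the mock. GPAT7 had the largest difference (-2.86), the hydroxylase genes CYP86B1 and CYP86A1 differed by -2.20 and -1.40, and the transporter gene ABCG6 by -2.07. The transporter gene ABCG2 and the reductase gene FAR1 (AT5G22500), at -0.81 and -0.74, were holding. The limma fit called 12 of the 13 as falling under ABA and 8 in ABA minus mock, where 15.5 and 4% of all genes fell. The endodermal marker CASP1 was lower (-1.33) and the root marker SCR higher (0.36), and their part in these values was not tested.

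Of 11 genes for cuticular wax, 9 were induced at 3 h and all 9 were declining, with a list median of -1.20 under ABA and -0.21 in the mock. CER1 and CER3 together make wax alkanes. CER1 stood at 52.2 FPKM at 24 h and 195 FPKM at 3 h under ABA, against 8.73 FPKM at 24 h and 9.10 FPKM at 3 h in the mock, and CER3 at 66.3 FPKM at 24 h and 327 FPKM at 3 h under ABA, against 63.5 FPKM at 24 h and 67.0 FPKM at 3 h in the mock. CER1 thus kept a clear difference from the mock at 24 h (2.45), whereas CER3 was level with it (0.06). CER2 and KCS1, for the elongation of wax precursors, differed by -2.10 and -2.16, and CER6 by -1.08. CER6 and the transporter genes ABCG11 and ABCG12 moved to under 2-fold with pools scaled to the same sum. MYB96, a transcription factor that activates wax genes, stood at 15.1 FPKM at 24 h and 73.4 FPKM at 3 h under ABA, against 6.56 FPKM at 24 h and 6.99 FPKM at 3 h in the mock and fell with a slope of -0.75 ± 0.06 (SE, limma adjusted p = 0.0068).

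Induced transcription factor genes are given by family, beside 37.3% declining and 61.6% holding among all induced genes. Of 10 MYB genes 6 were induced and 5 of these declining (list median -1.06). MYB74, MYB41 and MYB44 differed by -1.94, -1.55 and -1.18, MYB94 by -1.06, and MYB49 was holding. Of 14 stress and senescence NAC genes 8 were induced, 6 of them declining and 2 holding (list median -0.95). NAC032 stood at 109 FPKM at 24 h and 403 FPKM at 3 h under ABA, against 56.7 FPKM at 24 h and 74.0 FPKM at 3 h in the mock, and RD26 at 116 FPKM at 24 h and 315 FPKM at 3 h under ABA, against 17.0 FPKM at 24 h and 11.9 FPKM at 3 h in the mock. NAC019 differed by -1.55 under ABA and 0.93 in the mock, and ORE1, a promoter of leaf senescence, was holding (-0.46). All 5 induced genes among the 11 HD-Zip I factors were holding (list median -0.61), and 7 of the 11 fell in the limma fit. HB7 stood at 277 FPKM at 24 h and 509 FPKM at 3 h under ABA, against 10.8 FPKM at 24 h and 5.27 FPKM at 3 h in the mock, HB12 at 113 FPKM at 24 h and 224 FPKM at 3 h under ABA, against 9.50 FPKM at 24 h and 7.12 FPKM at 3 h in the mock, and HB6 at 238 FPKM at 24 h and 386 FPKM at 3 h under ABA, against 95.9 FPKM at 24 h and 88.3 FPKM at 3 h in the mock. These 3 fell in the limma fit, by less than 2-fold between 24 h and 3 h, with HB12 at -0.99 close to the limit.

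Of 7 CBF and DREB2 genes, regulators of cold and drought responses, 4 were induced at 3 h, and CBF1, CBF3 and CBF4 were declining while CBF2 was holding. CBF1 to CBF3 are neighbouring copies that share reads and their split is uncertain. Their ABA levels had already dropped before 3 h. Under ABA CBF1 stood at 72.5 FPKM at 0.5 h, 4.24 FPKM at 3 h and 0.222 FPKM at 24 h, and CBF2 at 164 FPKM at 0.5 h, 3.10 FPKM at 3 h and 2.22 FPKM at 24 h.

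**Figure D4:**
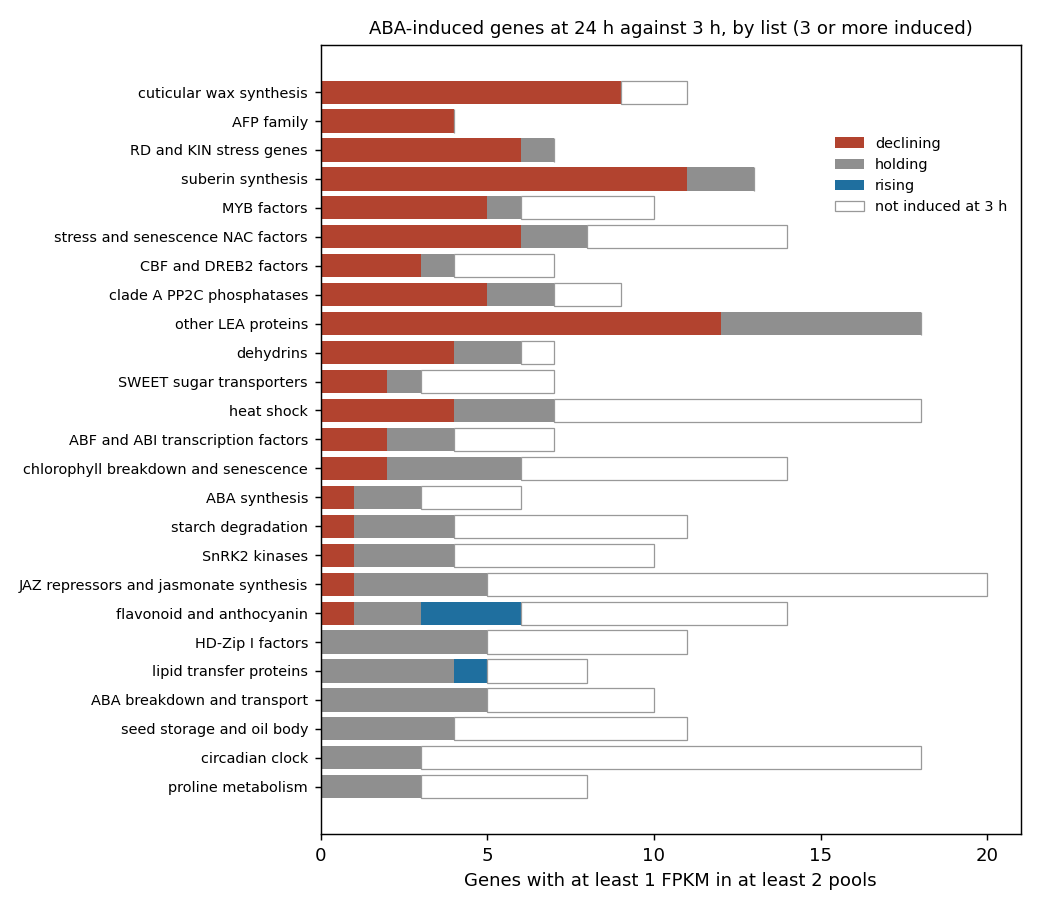
Number of genes that pass the filter on low values (horizontal axis) in each list with 3 or more genes induced at 3 h, split into declining, holding and rising genes and those not induced. All 9 induced wax genes and 11 of 13 suberin genes are declining, while the induced HD-Zip I, proline and ABA breakdown genes are holding.

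Genes for sugar transport and starch use were divided. Of 7 SWEET sugar transporters, 3 were induced. SWEET1 stood at 41.3 FPKM at 24 h and 266 FPKM at 3 h under ABA, against 44.5 FPKM at 24 h and 52.0 FPKM at 3 h in the mock, SWEET4 at 25.2 FPKM at 24 h and 155 FPKM at 3 h under ABA, against 1.83 FPKM at 24 h and 3.16 FPKM at 3 h in the mock, and SWEET12 was holding. SWEET1 was thus level with the mock at 24 h and SWEET4 was not. The list of SWEET genes had a median of -0.46. SWEET15, counted with senescence genes, was declining with 318 FPKM at 24 h and 879 FPKM at 3 h under ABA, against 3.57 FPKM at 24 h and 5.51 FPKM at 3 h in the mock. Among 11 starch degradation genes 4 were induced. BAM1 (AT3G23920), a beta-amylase, was declining with 130.2 FPKM at 24 h and 411 FPKM at 3 h under ABA, against 45.3 FPKM at 24 h and 37.0 FPKM at 3 h in the mock, while SEX1, MEX1 and ISA3 were holding. PHS1 (AT3G29320) and SEX4 were at least 2-fold higher at 24 h under ABA (1.20 and 1.44), with SEX4 also 2-fold higher in the mock (1.11). The list median was 0.54 under ABA and 0.05 in the mock, and 5 of the 11 rose in the limma fit.

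Osmolyte genes gave few induced members. Of 8 proline genes 3 were induced and all were holding, where 61.6% of all induced genes were, among them P5CS1, the main enzyme of proline synthesis under stress, with 253 FPKM at 24 h and 414 FPKM at 3 h under ABA, against 15.7 FPKM at 24 h and 13.3 FPKM at 3 h in the mock. The list median was -0.28. Of 6 galactinol and raffinose genes 1, GOLS4, was induced by the rule and was holding. In this list 2 genes were at least 2-fold lower at 24 h than at 3 h under ABA and 1 at least 2-fold higher. GOLS2, a galactinol synthase gene, had 10.3 FPKM at 24 h and 35.9 FPKM at 3 h under ABA but was not called at 3 h in the authors' deposited table, and GOLS3 was listed at 0 at 24 h and had 1.12 FPKM at 3 h under ABA. DIN10, a raffinose synthase homologue repressed at 3 h, had 86.3 FPKM at 24 h and 16.1 FPKM at 3 h under ABA, against 123 FPKM at 24 h and 141 FPKM at 3 h in the mock and rose in the limma fit (adjusted p = 0.011).

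Of 11 hypoxia genes 2 were induced and both were declining. SUS1, a sucrose synthase, stood at 18.6 FPKM at 24 h and 136 FPKM at 3 h under ABA, against 11.7 FPKM at 24 h and 12.3 FPKM at 3 h in the mock, and ADH1, alcohol dehydrogenase, at 116 FPKM at 24 h and 481 FPKM at 3 h under ABA, against 31.6 FPKM at 24 h and 63.6 FPKM at 3 h in the mock. In this list 5 genes were at least 2-fold lower at 24 h under ABA and 4 in the mock, and the medians were -0.75 under ABA and -0.82 in the mock. The factor gene HRE2 and PDC1, pyruvate decarboxylase, differed by -2.30 and -1.92 under ABA and by -2.34 and -2.01 in the mock. SUS1 was the member whose ABA and mock differences lay furthest apart.

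Heat shock genes also moved in the mock. Of 18 genes 7 were induced, 4 of them declining and 3 holding. Over the whole list 11 were at least 2-fold lower at 24 h under ABA and 8 in the mock, with medians of -1.59 and -0.45. HSP90.1 stood at 6.54 FPKM at 24 h and 29.8 FPKM at 3 h under ABA, against 14.1 FPKM at 24 h and 87.5 FPKM at 3 h in the mock, and HSP70-4 at 90.0 FPKM at 24 h and 318 FPKM at 3 h under ABA, against 18.1 FPKM at 24 h and 178 FPKM at 3 h in the mock, each lower at 24 h under both treatments. HSFA6B, a heat shock factor gene, was declining with 8.25 FPKM at 24 h and 39.7 FPKM at 3 h under ABA, against 0.668 FPKM at 24 h and 0.845 FPKM at 3 h in the mock. HSFA6A and HSP22, with 51.0 FPKM at 24 h and 33.1 FPKM at 3 h under ABA and 26.0 FPKM at 24 h and 40.0 FPKM at 3 h under ABA, moved under 2-fold, but neither was called at 3 h in the authors' deposited table.

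The abundant genes that held include LTP1, a lipid transfer protein gene, with 4405 FPKM at 24 h and 4542 FPKM at 3 h under ABA, against 2072 FPKM at 24 h and 1403 FPKM at 3 h in the mock, and MT2A, a metallothionein gene, with 4711 FPKM at 24 h and 4048 FPKM at 3 h under ABA, against 3029 FPKM at 24 h and 1041 FPKM at 3 h in the mock. MT2A was close to its 3 h level under ABA and higher in the mock (1.54). AT1G09310 and AT4G23670, annotated as a protein of unknown function and a polyketide cyclase family protein, had 3362 FPKM at 24 h and 4657 FPKM at 3 h under ABA and 2824 FPKM at 24 h and 1661 FPKM at 3 h under ABA. Of 8 lipid transfer protein genes 5 were induced, 4 of them holding and 1 rising, and this list had a median of 0.57 under ABA and 0.25 in the mock. LTP4, the rising member, had 2058 FPKM at 24 h and 954 FPKM at 3 h under ABA, and in the mock 0.504 FPKM at 24 h while it was listed at 0 at 3 h. Its ABA level was already 1832 FPKM at 6 h, and it did not pass the limma fit (adjusted p = 0.062). Its neighbour LTP3, with 1057 FPKM at 24 h and 1305 FPKM at 3 h under ABA, is a close copy, and the split of reads is uncertain.

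Seed genes gave few induced members. Of 11 seed storage and oil body genes 4 were induced and all 4 were holding, and 3 more were late. The count of 4 is too small to set apart from the 61.6% holding among all induced genes. OLEO2, an oil body protein gene, stood at 77.6 FPKM at 24 h and 70.2 FPKM at 3 h under ABA, against 1.59 FPKM at 24 h and 1.90 FPKM at 3 h in the mock, and OLEO1 at 28.5 FPKM at 24 h and 17.4 FPKM at 3 h under ABA, against 0.289 FPKM at 24 h and 1.56 FPKM at 3 h in the mock. The list median was 0.29 under ABA and -0.74 in the mock, and its summed level was 199 FPKM at 24 h and 161 FPKM at 3 h under ABA, against 15.8 FPKM at 24 h and 33.5 FPKM at 3 h in the mock. The summed level was thus higher under ABA at both times while that of the mock went down. Much of the sum under ABA was OLEO2, OLEO1 and PER1 (43.4 FPKM at 24 h and 35.3 FPKM at 3 h under ABA). The median ABA minus mock difference was 1.63 at 24 h and 0.52 at 3 h, and OLEO4 was level with the mock at 24 h (-0.04).

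Induced genes that were higher still at 24 h were few. The 22 genes were led, among those whose mock moved under 2-fold, by bHLH38 (2.05), MBP1 (1.59), AT3G58550 (1.55) and HIS1-3 (1.48). Of these, bHLH38 and MBP1 did not pass the limma test under ABA (adjusted p = 0.1 and 0.051), and bHLH38 stood at 67.1 FPKM at 9 h, 23.6 FPKM at 12 h and 91.5 FPKM at 24 h. HIS1-3, a linker histone variant induced by drought, stood at 159 FPKM at 24 h and 56.4 FPKM at 3 h under ABA, against 4.49 FPKM at 24 h and 2.46 FPKM at 3 h in the mock. It stayed near its 3 h level at 6 h under ABA (55.3 FPKM) and was 115 FPKM at 12 h, and it rose with a slope of 0.55 ± 0.10 (SE, limma adjusted p = 0.017). AT3G58550, annotated in the lipid-transfer and seed storage albumin superfamily, had 211 FPKM at 24 h and 71.6 FPKM at 3 h under ABA, against 38.6 FPKM at 24 h and 31.9 FPKM at 3 h in the mock. AT2G15220, annotated as a basic secretory protein, had 36.5 FPKM at 24 h and 13.3 FPKM at 3 h under ABA, against 4.25 FPKM at 24 h and 4.85 FPKM at 3 h in the mock. Both rose in ABA and in ABA minus mock, with limma adjusted p of 0.038 and 0.036 for the second. XTH11, a cell wall enzyme gene, MYB112, a transcription factor gene, AT5MAT, an anthocyanin malonyltransferase gene, and AT1G62290, annotated as an aspartyl protease, differed by 1.33, 1.30, 1.12 and 1.10. Of the 22 genes, 18 rose in the limma fit under ABA and 4 in ABA minus mock, where 9.51 and 1.05% of all genes rose. The pools that chose the 22 genes also enter these slopes, so the counts are favoured by the choice.

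The anthocyanin genes DFR, LDOX and TT19 were higher at 24 h than at 3 h with and without ABA. DFR, a reductase of anthocyanin synthesis, stood at 168 FPKM at 24 h and 42.3 FPKM at 3 h under ABA, against 43.5 FPKM at 24 h and 7.02 FPKM at 3 h in the mock, and LDOX, the next enzyme, at 143 FPKM at 24 h and 51.7 FPKM at 3 h under ABA, against 48.0 FPKM at 24 h and 10.3 FPKM at 3 h in the mock. TT19, a transferase that carries anthocyanins to the vacuole, had 199 FPKM at 24 h and 80.2 FPKM at 3 h under ABA, against 72.6 FPKM at 24 h and 16.7 FPKM at 3 h in the mock. In each of them the difference was larger in the mock (2.47, 2.12 and 2.05) than under ABA (1.96, 1.45 and 1.30), while the ABA level stayed at least 2-fold above the mock at both times. The factors PAP1 and PAP2, which activate these enzyme genes, took another course: PAP2 was declining (-1.91) and PAP1 (AT1G56650) holding (-0.59), the second with 28.1 FPKM at 24 h and 42.6 FPKM at 3 h under ABA, against 5.63 FPKM at 24 h and 1.59 FPKM at 3 h in the mock. Over the 14 flavonoid genes 6 were induced, 1 declining, 2 holding and 3 rising. The list median was -0.21 under ABA and 0.28 in the mock. F3H and CHI, enzyme genes of this list, differed by -0.21 and -0.33 under ABA. The largest differences among rising genes whose mock was also at least 2-fold higher were those of NIT2, a nitrilase gene, with 196 FPKM at 24 h and 24.7 FPKM at 3 h under ABA, against 66.5 FPKM at 24 h and 11.0 FPKM at 3 h in the mock, and AT2G05510, annotated as a glycine-rich protein, with 912 FPKM at 24 h and 157 FPKM at 3 h under ABA, against 104 FPKM at 24 h and 23.9 FPKM at 3 h in the mock. AT1G80130 and AT4G14090 differed by 1.76 and 1.58 under ABA and by 2.71 and 1.73 in the mock.

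The late class drew its difference from both treatments. Of its 263 genes 43 were at least 2-fold higher at 24 h than at 3 h under ABA, 43 were at least 2-fold lower in the mock, and 179 moved under 2-fold in both. The median difference was 0.31 under ABA and -0.43 in the mock. By the limma test 73 rose under ABA and 37 in ABA minus mock, where 9.51 and 1.05% of all genes rose. At 24 h the ABA minus mock difference also moved with transcript length (Spearman's rho 0.29 over 19928 genes, given as a description because genes share pools and are not independent), the median transcript of late genes was 1810 bases against 1667 bases for all genes, and with pools scaled to the same sum the class held 438 genes. The part of length in the class was not tested.

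The late genes with the largest differences at 24 h included BHLH100, bHLH39 and several small uncharacterised genes. AT1G13608, annotated as a defensin-like protein, stood at 10.1 FPKM at 24 h under ABA and was listed at 0 at 3 h under ABA and at both times in the mock. AT2G32870, annotated as a TRAF-like family protein, had 15.8 FPKM at 24 h and 1.09 FPKM at 3 h under ABA, against 0.943 FPKM at 24 h and 1.20 FPKM at 3 h in the mock. AT1G13609, also defensin-like, had 46.3 FPKM at 24 h and 6.20 FPKM at 3 h under ABA, against 4.17 FPKM at 24 h and 4.58 FPKM at 3 h in the mock. AT1G47395 and AT2G30766, annotated as uncharacterised proteins, had 539 FPKM at 24 h and 112 FPKM at 3 h under ABA and 498 FPKM at 24 h and 117 FPKM at 3 h under ABA. These 5 genes differed from the mock by at most 0.51 at 3 h and rose in ABA minus mock, with limma adjusted p between 0.022 and 0.037. AT2G14247, AT3G28270 and AT3G17998 differed by 1.90, 1.79 and 2.08, and AT3G17998 passed the limma test neither under ABA nor in ABA minus mock (adjusted p = 0.16 and 0.19). Late genes were not all new at 24 h, since 43 of the 263 had their highest ABA level at 0.5 h. At 0.5 h AT1G47395 had 452 FPKM in ABA, against 119.7 FPKM in mock seedlings, and in the same order AT2G30766 had 329 and 97.0 FPKM, AT2G14247 had 247 and 95.8 FPKM, and AT1G13609 had 13.97 and 6.30 FPKM.

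The 4 factors bHLH38, bHLH39, BHLH100 and BHLH101 form 1 subgroup of bHLH factors that, with FIT, activate the genes of iron uptake in roots. The group was chosen after its values were seen. BHLH100 stood at 58.0 FPKM at 24 h and 5.19 FPKM at 3 h under ABA, against 1.58 FPKM at 24 h and 4.01 FPKM at 3 h in the mock, and bHLH39 at 47.2 FPKM at 24 h and 5.41 FPKM at 3 h under ABA, against 7.19 FPKM at 24 h and 11.0 FPKM at 3 h in the mock. bHLH38, the neighbour and near copy of bHLH39 with which reads may be shared, had 91.5 FPKM at 24 h and 21.4 FPKM at 3 h under ABA, against 4.28 FPKM at 24 h and 8.59 FPKM at 3 h in the mock, and BHLH101 had 10.9 FPKM at 24 h and 5.22 FPKM at 3 h under ABA, against 1.36 FPKM at 24 h and 2.61 FPKM at 3 h in the mock. All 4 were higher at 24 h than at 3 h under ABA and lower in the mock, and all 4 rose in ABA minus mock (limma adjusted p between 0.02 and 0.048). The course was not smooth. BHLH100 under ABA had 54.5 FPKM at 0.5 h, 5.19 FPKM at 3 h, 32.6 FPKM at 9 h, 14.1 FPKM at 12 h and 58.0 FPKM at 24 h, so its 24 h level was close to that at 0.5 h.

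The uptake genes IRT1 and FRO2 took another course under ABA. IRT1, the root iron transporter, stood at 8.89 FPKM at 24 h and 4.33 FPKM at 3 h under ABA, against 9.34 FPKM at 24 h and 85.1 FPKM at 3 h in the mock, and FRO2, the root ferric reductase, at 2.97 FPKM at 24 h and 2.04 FPKM at 3 h under ABA, against 2.63 FPKM at 24 h and 22.9 FPKM at 3 h in the mock. Under ABA both were low at 3 h and 12 h (0.134 FPKM at 12 h for IRT1) and in the mock both were lower at each time after 3 h than at the time before it. At 24 h the treatments were within 2-fold of each other in both genes, and neither passed the limma fit under ABA (adjusted p = 0.86 and 0.8). In ABA minus mock FRO2 did rise, as the bHLH factors did (limma adjusted p = 0.036). Its mock level was lower at 24 h than at 3 h, while its ABA level moved under 2-fold.

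The window of bHLH38 upstream of the gene start, in TAIR10.1 at chr3:21085246-21085495, minus strand, is shown because this is the rising gene with the largest difference among those whose mock moved under 2-fold. Its 2 ABRE matches, in capitals, lie on opposite strands and overlap in a G-box.
bHLH38: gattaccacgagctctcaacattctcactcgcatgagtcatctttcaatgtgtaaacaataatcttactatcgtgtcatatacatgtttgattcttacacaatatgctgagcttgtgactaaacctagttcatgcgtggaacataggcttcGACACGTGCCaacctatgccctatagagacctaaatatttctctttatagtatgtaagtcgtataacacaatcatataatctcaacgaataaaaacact
The windows of the rising genes LTP4 and HIS1-3 hold no ABRE.

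**Figure D5:**
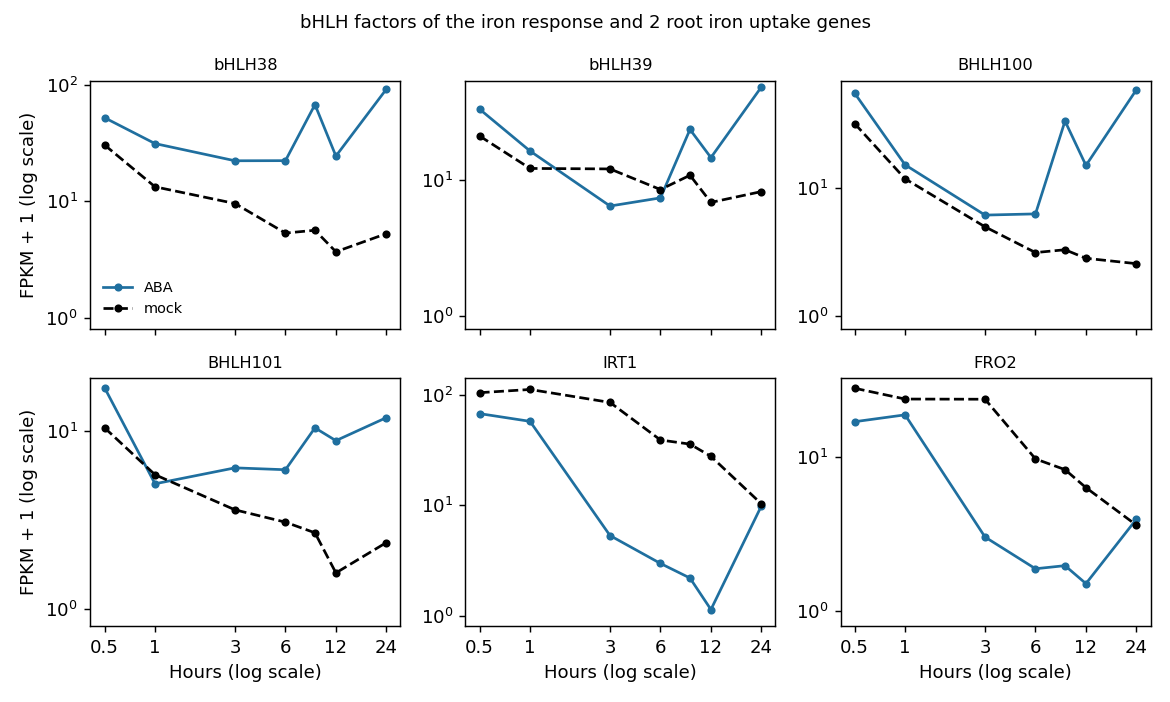
FPKM + 1 (log scale) of the 4 bHLH factors and of IRT1 and FRO2 at 0.5 to 24 h (log time axis), ABA solid and mock dashed, each point 1 pooled value. The factors end at 10.9 to 91.5 FPKM at 24 h of ABA, against 1.36 to 7.19 FPKM in the mock, while IRT1 and FRO2 lie within 2-fold between treatments at 24 h.

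Genes that ABA had repressed at 3 h were taken by the same rule with the sign turned, so the 3 h ABA pool that chose them also enters their change. Of 1186 repressed genes (5.92%), 213 were at least 2-fold higher at 24 h than at 3 h under ABA, 59 at least 2-fold lower, and 914 moved under 2-fold, where 3.39% of all genes were higher and 6.65% lower. The balance of these counts is favoured by the choice of genes and is given as a description. RBCS1B, which encodes a small subunit of Rubisco, stood at 2013 FPKM at 24 h and 311 FPKM at 3 h under ABA, against 3027 FPKM at 24 h and 2489 FPKM at 3 h in the mock and rose in the limma fit (adjusted p = 0.019). Its close copies RBCS2B and RBCS3B differed by -0.88 and -1.69 under ABA and by -0.99 and -1.39 in the mock, and the split of reads among them is uncertain. The 29 photosynthesis genes had a median difference of 0.19 under ABA and -0.51 in the mock, and a median ABA minus mock difference of 0.33 at 24 h and -0.41 at 3 h. None of them was induced at 3 h, and 1 rose and 1 fell in the limma fit under ABA. RCA, the activase of Rubisco, was one of those below the mock at 3 h, with 3621 FPKM at 24 h and 2498 FPKM at 3 h under ABA, against 3079 FPKM at 24 h and 4717 FPKM at 3 h in the mock.

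The remaining lists moved little under ABA between these times. None of the 18 cell cycle genes was induced or moved 2-fold (median 0.23). Of 20 jasmonate genes 5 were induced, and VSP2, whose close copy VSP1 held, was the declining one (-1.06). Of 14 genes of chlorophyll breakdown and senescence 6 were induced, and SWEET15 and NYE1 were declining while PAO, PPH, SGR2 and SAG13 were holding. Of 18 clock genes 3 were induced and held, and ELF4 was 2-fold lower (-1.34). Of 9 expansin genes 1 was induced: EXPA4 was declining, with 36.8 FPKM at 24 h and 104 FPKM at 3 h under ABA, against 36.4 FPKM at 24 h and 35.4 FPKM at 3 h in the mock. No type-A cytokinin response regulator was induced, and ARR16 was 2-fold lower (-1.26). Of 13 salicylate genes 1, EDS5, was induced and declining (-1.27), while 5 were at least 2-fold higher at 24 h in the mock alone, among them PR1 with 0.0418 FPKM at 24 h under ABA against 147 FPKM at 24 h in the mock. PR1 was not called different at 24 h in the authors' deposited table, and its mock level at 12 h was 3.90 FPKM.

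Marker genes of organs were checked beside these results. Of 15 root markers 1 was induced at 3 h, and their summed level was 1469.9 FPKM at 24 h and 1272 FPKM at 3 h under ABA, against 2419.6 FPKM at 24 h and 2114 FPKM at 3 h in the mock. Most of this sum was the beta-glucosidase gene PYK10, with 1339 FPKM at 24 h and 1053 FPKM at 3 h under ABA, against 2276 FPKM at 24 h and 1779 FPKM at 3 h in the mock. The median root marker differed from the mock by 0.13 at 24 h and -0.11 at 3 h (ABA minus mock). Under ABA the list had a median difference of -0.25, 3 of its genes were at least 2-fold lower at 24 h than at 3 h, and 5 fell in the limma fit. CASP1, a gene of the endodermal Casparian strip, differed by -1.33 (limma adjusted p = 0.015), and EXPA7 and EXPA18, expansin genes of root hairs, by -1.40 and -1.45. Of 6 guard cell markers none was induced, and their summed level was 937 FPKM at 24 h and 799 FPKM at 3 h under ABA, against 469 FPKM at 24 h and 781 FPKM at 3 h in the mock. No marker of either list was at 0 in all 4 pools. The guard cell sum was mostly TGG1, a myrosinase gene, with 871 FPKM at 24 h and 737 FPKM at 3 h under ABA, against 419 FPKM at 24 h and 728 FPKM at 3 h in the mock. The median guard cell marker differed from the mock by 0.36 at 24 h and 0.07 at 3 h (ABA minus mock), and 1 of the 6 was late. Single members parted at 24 h, with SLAC1 at 0.45, FAMA at -0.04 and HT1 at -0.43. CASP1 and the root hair genes were thus lower at 24 h under ABA. Other root markers were higher, among them SCR (0.36), NRT2:1 (0.91), FRO2 (0.39) and PYK10 (0.35), none by 2-fold. The root markers did not share a course, and their part in the courses of the suberin genes was not tested.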

How the data were processed

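Whole-seedling RNA of 28 libraries, 2 in each of 14 groups of treatment and time, was measured by paired-end sequencing. Per the submitters' processing notes, reads were checked with FastQC and aligned with STAR to TAIR10. The deposited FPKM table holds 1 value per gene and group, so the authors combined the 2 libraries of a group in a way not given in the sources used here. That the unit is FPKM was taken from the values, and the program that computed them is not known. The authors' yes or no calls of ABA against mock at each time were used as deposited, with no known test or threshold.

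From there log2(FPKM + 1) was compared for the 20034 of 33557 entries that reached 1 FPKM in 2 or more pools. With pooled values, 24 h minus 3 h has no test, and a 2-fold difference is the limit used. Slopes on log2 hours over 5 times were tested in R 4.3.3 with limma 3.58.1 (eBayes, variance trend, Benjamini-Hochberg over all 20034 genes, limit 0.05), after a check on simulated data. Python 3.11.15, pandas 2.3.3, scipy 1.17.1 and matplotlib 3.10.9 did the rest. Gene names, transcript lengths (19928 genes) and promoters come from RefSeq (TAIR10.1), in which 32813 entries were found. Depth was estimated from the step between low values and transcript length less 250 bases, and its precision could not be set further.

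The members and the 35 gene lists (422 loci, 398 past the filter) were chosen with earlier results of these data known. Beyond the lists, genes were named by a rule. These were the 10 largest differences among declining and among rising genes with at least 10 FPKM and a mock under 2-fold, the 5 largest of each whose mock moved the same way by 2-fold, the 5 most abundant holding genes and the 10 largest late genes. IRT1, FRO2 and the 4 bHLH factors as a group were chosen after their values were seen. Alternatives covered the pseudocount, the filter, 3 scalings, the times used and the rule for induction.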

Additional observations from a re-analysis of the deposited data

Results flagged for a closer look

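Seedlings in ABA and seedlings in the mock parted in their course from 3 h to 24 h in 801 genes whose ABA minus mock slope fell and in 211 genes whose slope rose, by the limma test of the slope of the difference itself. COR15B is among the first set, with a slope of -1.85 ± 0.26 log2 units per doubling of the hours (SE, adjusted p = 0.022), and AT2G15220 among the second, with 0.56 ± 0.11 (SE, adjusted p = 0.036). Both counts depend on scaling, as given under the next heading. In 16 of the 787 declining genes the pools moved in opposite directions. These were at least 2-fold lower under ABA and at least 2-fold higher in the mock at 24 h. Of all genes 2.52% were at least 2-fold higher in the mock, a share not below that of the 16 among the 787. COR15A is 1 of the 16, with differences of -2.96 under ABA and 1.81 in the mock, and AFP3 is another, with -1.93 and 1.39. For these 16 genes as a set the difference between the treatments was not tested.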

How the results depend on the processing

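Over 118 counts recomputed under an alternative, 88 stayed within 1.5 times of the value reported. With a pseudocount of 0.25, 592 genes were 2-fold lower in the mock, and 288 fell and 69 rose in ABA minus mock slope. With pools scaled to the same sum, 332 genes were 2-fold higher in the mock, 438 were late, 1896 fell in ABA slope, and 366 fell and 397 rose in ABA minus mock slope, so that the balance of falling and rising genes turned round in both slope fits (1896 and 2264 for ABA) and that of lower and higher genes in the mock (499 and 332). With the length trend removed 327 genes were 2-fold higher in the mock and 452 lower, which turned that balance too. With 6 h in place of 3 h 319 genes were declining. The rule of induction at 1 h, chosen after seeing the data, gave 1138 induced genes, of which 460 were declining, 664 holding and 14 rising. Without the filter 820 genes fell and 277 rose in ABA slope, and 0 fell and 0 rose in ABA minus mock slope in limma (3951 and 2271 at an unadjusted p under 0.05). With hours in place of log2 hours, 0 fell and 0 rose in either limma fit (unadjusted, 3526 and 2628 for ABA, 3185 and 2082 for ABA minus mock). Without 24 h, 910 fell and 277 rose for ABA, and 170 fell and 42 rose for ABA minus mock. Without 3 h, 0 fell and 0 rose for ABA (unadjusted, 2855 and 2478), and 1 fell and 0 rose for ABA minus mock (unadjusted, 2399 and 1747). The cause was not tested. Of 917 recomputed differences of named genes that were past 2-fold, 19 moved to under 2-fold and none changed sign. Of the others, 26 moved past 2-fold and 36 changed sign below it.

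No paired analysis was possible because the table holds 1 value for both libraries of a group. Leaving out single libraries was not run for the same reason. Differences between 24 h and 3 h therefore have no replicate check, slopes are judged against scatter about a line, and low genes are compressed by the pseudocount.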

Other observations

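Of the 1332 genes at least 2-fold lower at 24 h than at 3 h under ABA, 787 had been induced at 3 h, 59 had been repressed, and 486 were neither. Of the 486, 62 were also 2-fold lower in the mock. Of the 679 genes at least 2-fold higher at 24 h, 22 had been induced at 3 h, 213 had been repressed, 43 were late and 401 were none of these.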
